A study of Mus musculus with 5 samples.

Results

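The genes described here make microRNAs: Dicer1, Drosha, Dgcr8, Tarbp2, Prkra and Xpo5, 6 of the 19938 genes that had an array probe set of their own. They were chosen by name, and each was read from the probe set that the platform annotation gives to that symbol alone, the one of highest mean over all arrays where there were several. Transcripts were measured on Affymetrix whole-transcript arrays in ES (embryonic stem) cells of the mouse, which are pluripotent, from 3 wild-type and 2 Dicer-deficient asynchronous cultures. The series' design text calls these biological replicates. All cultures of both genotypes were grown feeder-free, in a mixture of serum medium with the cytokine LIF and a serum-free medium with kinase inhibitors. Cell line, sex, passage and the part of Dicer1 that was deleted are not stated in these sources, and the loss of Dicer and any further difference between the 2 kinds of cell cannot be told apart. Early G1 cultures, which the design text also describes, were not analysed here.

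A microRNA begins as a hairpin in a longer nuclear transcript. The ribonuclease Drosha and its RNA-binding partner Dgcr8, together called the Microprocessor, cut the hairpin free. Xpo5 (exportin 5) carries it to the cytoplasm with the GTPase Ran, and the ribonuclease Dicer, the product of Dicer1, cuts off the loop. Tarbp2 (TRBP) and Prkra (PACT) are related proteins with double-stranded RNA-binding domains that bind Dicer. In mouse ES cells much of the microRNA pool comes from the miR-290 and miR-302 clusters.

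One hairpin of the miR-290 cluster, Mir294, shows the cuts these proteins make. It is printed from the RefSeq table (GRCm38.p6, chr7:3220641-3220724, plus strand) with the mature arms in capitals. The outer ends of the arms are left by the Microprocessor and the ends facing the loop by Dicer.
Mir294: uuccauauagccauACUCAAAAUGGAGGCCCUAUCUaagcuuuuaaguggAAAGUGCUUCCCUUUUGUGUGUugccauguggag
Each arm has 22 bases, and 14 bases lie between them. The probe sets measured long transcripts, and whether microRNAs were cut from them was not measured.

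Dicer1 was the only one of these genes to pass the test, and it was lower in Dicer-deficient cells. The signal of a probe set is on a log2 scale, so a difference of 1 is a doubling, and the median probe set of each array lay between 5.39 and 5.45. Dicer1 read 8.84, 8.82 and 8.85 on wild-type arrays 1, 2 and 3, and 7.20 and 6.84 on Dicer-deficient arrays 1 and 2. The groups were separated by 1.62, while the wild-type arrays spanned 0.03 and the Dicer-deficient arrays 0.36. The mean was 8.84 ± 0.0153 (SD, n = 3) against 7.02 ± 0.255 (SD, n = 2). The difference, Dicer-deficient minus wild type, was -1.82 (SE 0.112, 95% interval -2.08 to -1.56, adjusted p = 0.000129 in limma with Benjamini-Hochberg adjustment over all genes). The remaining signal corresponded to 28.4% of the wild-type level, with an interval of 23.7% to 34.0%. In the same test 8.6% of all genes were called lower and 8.48% higher, and Dicer1 had the 24th largest fall. Without each array in turn the difference lay between -2.00 and -1.64 and the call held.

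The Dicer1 signal that remained in the Dicer-deficient cells was not at the floor of the array. Both values lay above the medians of those arrays, 5.41 on each, and below their upper quartiles, 7.29 and 7.28. Against the wild-type mean the signal was 3.11-fold lower on Dicer-deficient array 1 and 3.99-fold lower on array 2. The probe set cannot say whether the remaining transcript contains the deleted part, so it checks the labels only as far as it reads that part. The spread of Dicer1 was uneven between the groups. A wild-type SD below that of Dicer1 was seen for 2.7% of genes, and a Dicer-deficient SD above it for 4.26%.

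**Figure D1:**
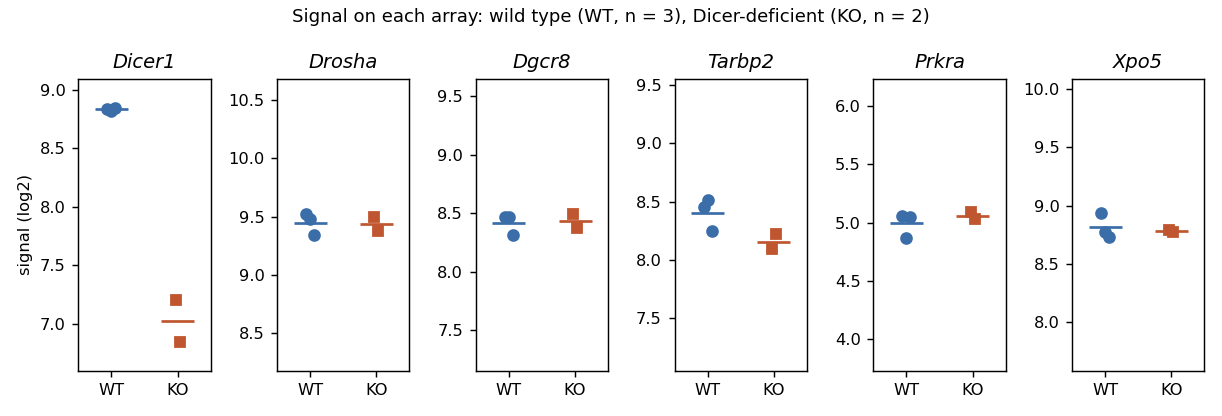
Signal (log2, each axis spanning the same range) of the 6 processing genes on each array, wild type (WT, circles, n = 3) and Dicer-deficient (KO, squares, n = 2), with group means as lines. Dicer1 falls from 8.84 to 7.02, and the groups of Drosha, Dgcr8, Prkra and Xpo5 overlap.

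The Microprocessor transcripts were level between the genotypes within narrow limits. Drosha read 9.52, 9.48 and 9.34 in wild-type cells and 9.50 and 9.38 in Dicer-deficient cells. The latter pair fell inside the wild-type range, and the difference of -0.01 had a 95% interval of -0.22 to 0.20 (limma adjusted p = 0.978). Dgcr8 read 8.47, 8.47 and 8.31 in wild-type cells and 8.49 and 8.37 in Dicer-deficient cells, with a difference of 0.01 and an interval of -0.19 to 0.22 (limma adjusted p = 0.955). These groups overlapped as well. On a linear scale the intervals reach from 0.861-fold to 1.15-fold for Drosha and from 0.874-fold to 1.17-fold for Dgcr8. Changes within those bounds remain compatible with the 5 arrays.

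Wild-type array 3 was the lowest of the wild-type arrays for Drosha, Dgcr8, Tarbp2 and Xpo5. It lay 0.11 below the wild-type mean for Drosha, 0.11 for Dgcr8, 0.15 for Tarbp2 and 0.08 for Xpo5. The upper quartile of that array was 7.25, against 7.34 and 7.32 on the others. After a further quantile normalization its values were 9.39 for Drosha and 8.37 for Dgcr8, still the lowest of the wild-type arrays, and 8.78 for Xpo5, which was then above the 8.74 of wild-type array 2. Dicer1 did not share this dip, with its highest wild-type reading on that array.

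Xpo5, the export receptor for precursor hairpins, did not pass the test either. It read 8.94, 8.77 and 8.73 in wild-type cells and 8.79 and 8.77 in Dicer-deficient cells. The Dicer-deficient readings sat within the wild-type range and only 0.02 apart. The difference was -0.03 with a 95% interval of -0.24 to 0.18 (limma adjusted p = 0.879).

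The Dicer partners gave different pictures. Prkra, the activator of the kinase PKR as well as a Dicer partner, read 5.06, 4.87 and 5.05 in wild-type cells and 5.09 and 5.03 in Dicer-deficient cells. Its difference was 0.07 (95% interval -0.14 to 0.28, limma adjusted p = 0.734). All 5 readings lay below the array medians, where background was not separated from signal, and the size of any change is uncertain. Tarbp2 read 8.45, 8.51 and 8.25 in wild-type cells and 8.09 and 8.22 in Dicer-deficient cells. The latter pair lay under the wild-type range, though by 0.03 only, a separation that 19.9% of all genes showed in that direction, 20% in the other and 39.9% in either. Its difference was -0.25 (SE 0.102, 95% interval -0.48 to -0.01), a 1.19-fold lower level that missed the threshold (limma adjusted p = 0.159).

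A further probe set carried the Tarbp2 symbol alone, with a lower mean signal, and it gave a larger difference. It read 7.73, 7.71 and 7.84 in wild-type cells and 7.26 and 7.47 in Dicer-deficient cells. These groups did not overlap, as was so for 19.9% of all genes in that direction and 39.9% in either. Their means were 7.76 ± 0.07 (SD, n = 3) and 7.36 ± 0.148 (SD, n = 2). The difference was -0.40 (95% interval -0.61 to -0.18), and the call passed when every gene was read from its probe set of lowest mean (limma adjusted p = 0.0269). That setting was added after the data were seen. In a fit over all probe sets neither passed, with limma adjusted p = 0.0761 for this probe set and 0.264 for that of highest mean. With the mean of both probe sets Tarbp2 was -0.32 (adjusted p = 0.0369), and with weights for array quality the probe set of highest mean gave -0.31 (adjusted p = 0.0442). Whether Tarbp2 is called thus depends on the fit as well as on the probe set, and which probe set reads the transcript better was not tested. Without each array in turn the probe set of highest mean gave between -0.32 and -0.18 and was not called.

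**Figure D2:**
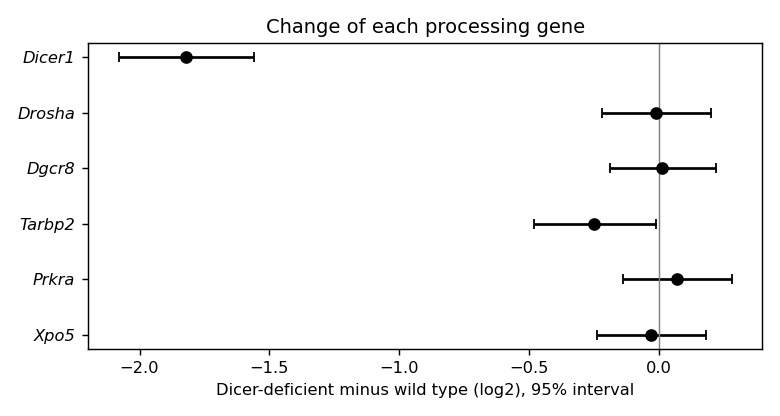
Difference in signal (Dicer-deficient minus wild type, log2) of each processing gene, with limma's 95% interval. Dicer1 stands at -1.82, Tarbp2 at -0.25 with an interval ending at -0.01, and the intervals of the other 4 genes include 0.

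Of the 6 genes, then, 1 was called lower and 0 higher by limma. At an unadjusted limma p of 0.05, 2 were lower, Tarbp2 joining Dicer1, and 0 higher, and 14.2% of all genes were lower, 13.6% higher and 27.8% either at that threshold. At the adjusted threshold the share called was 16.7%, against 17.1% of all genes in either direction, so a count of 1 is near the background. Of the 6 genes 5 read above the median signal on every array. Among genes off chromosome 14 with a mean above the median signal the share called was 27.4%. The median difference was -0.02 over the 6 genes and 0.0075 over all genes. Of all genes, 3.8% had a smaller absolute difference than Drosha, 6.42% than Dgcr8, 17.5% than Xpo5, 32.8% than Prkra and 74% than Tarbp2. For Dicer1 this share was 99.6%.

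**Figure D3:**
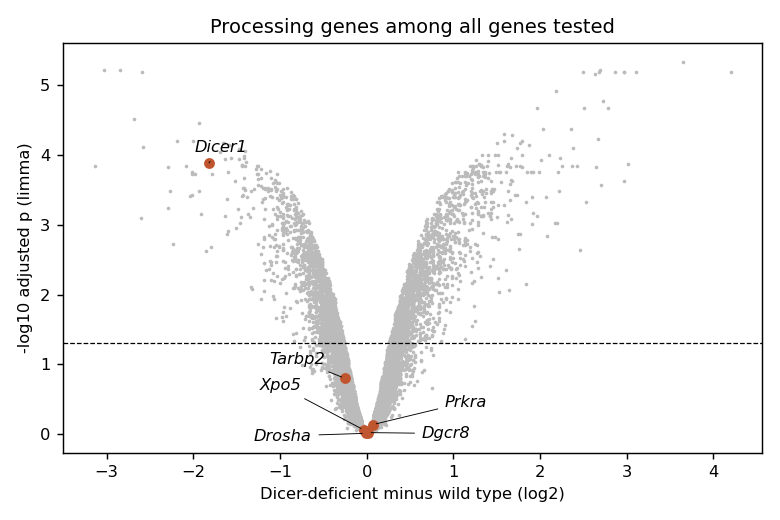
Difference in signal (log2) and -log10 of limma's adjusted p for all 19938 genes (grey), with the 6 processing genes named and the dashed line at an adjusted p of 0.05. Dicer1 lies among the large falls, Tarbp2 below the line, and Drosha, Dgcr8, Prkra and Xpo5 near the origin.

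MicroRNA hairpins lie inside the genes for Dgcr8 and Xpo5. In the RefSeq tables (GRCm38.p6) mature microRNAs of Mir1306 and of the hairpin that yields miR-3618 fall within Dgcr8, on chr16 and its own strand, and those of Mir693 within Xpo5, on chr17 and its own strand. They are shown because the transcripts of these processing genes are themselves possible substrates of the machinery. The seed, bases 2 to 8, is in capitals.
mmu-miR-1306-3p: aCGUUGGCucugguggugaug
mmu-miR-1306-5p: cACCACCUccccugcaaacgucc
mmu-miR-3618-3p: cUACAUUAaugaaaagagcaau
mmu-miR-3618-5p: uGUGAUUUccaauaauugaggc
mmu-miR-693-5p: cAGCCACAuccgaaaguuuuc
mmu-miR-693-3p: gCAGCUUUcagauguggcuguaa
The 6 sequences had 6 different seeds. Mir693 had its own probe set, which read 4.16, 4.11 and 4.35 in wild-type cells and 4.10 and 4.24 in Dicer-deficient cells. The values overlapped and lay near the arrays' lower quartiles, 4.14 to 4.18, a level at which background was not separated from signal (difference -0.04, limma adjusted p = 0.881).

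The promoters of the processing genes held more CpG than the median promoter, to unequal degrees. In RefSeq windows of 300 bases, 250 before to 50 after the start, GC content ranged from 59.0% for Tarbp2 to 77.3% for Dicer1, against a median of 52.7% and an upper quartile of 61.7% over all windows. CpG dinucleotides numbered 49 for Dicer1, 43 for Dgcr8, 40 for Xpo5, 37 for Drosha, 21 for Tarbp2 and 16 for Prkra, against a median of 7 and an upper quartile of 20. Prkra lay below the upper quartile for CpG and Tarbp2 below that for GC content. Motifs were searched as exact letters on both strands, and matches may overlap. The GC box letters GGGCGG were present in 5 of the 6 windows, against 35.7% of 32851 windows in all, not matched for GC content. The CCAAT letters were present in 4, against 37.4%. TATAAA (13.6% of all windows) and the E-box letters CACGTG (7.15%) were present in 0 of the 6. The ETS core letters CCGGAA occurred in 1, that of Drosha, against 14.9%.

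Drosha and Xpo5 share a promoter region with a gene on the opposite strand, and these windows are shown because the partners' readings can be set beside those of the processing genes. The window of Xpo5 (chr17:46202561-46202860, plus strand) shares 269 bases with that of Polh, a DNA polymerase that copies past ultraviolet damage, and the annotated starts lie 170 bases apart. The window of Drosha (chr15:12824565-12824864, plus strand) shares 257 bases with that of 6030458C11Rik, with starts 158 bases apart. Capitals mark the letters of the motifs named above, on either strand.
Xpo5: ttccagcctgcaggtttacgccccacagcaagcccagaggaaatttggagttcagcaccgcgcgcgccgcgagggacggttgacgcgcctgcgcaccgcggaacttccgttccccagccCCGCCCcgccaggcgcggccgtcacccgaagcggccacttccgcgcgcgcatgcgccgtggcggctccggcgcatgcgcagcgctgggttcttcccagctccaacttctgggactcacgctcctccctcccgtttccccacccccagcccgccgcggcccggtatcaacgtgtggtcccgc
Drosha: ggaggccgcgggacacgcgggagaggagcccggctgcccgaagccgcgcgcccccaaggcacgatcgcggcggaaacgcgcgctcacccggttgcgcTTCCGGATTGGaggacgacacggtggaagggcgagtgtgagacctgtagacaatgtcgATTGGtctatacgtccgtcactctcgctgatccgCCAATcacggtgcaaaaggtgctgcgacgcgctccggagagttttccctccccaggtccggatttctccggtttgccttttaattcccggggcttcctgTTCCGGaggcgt
Of the pair at the Xpo5 window, Polh passed the test and Xpo5 did not. Polh read 7.18, 7.22 and 7.17 in wild-type cells and 6.78 and 6.75 in Dicer-deficient cells. It fell 1.34-fold, by 0.42 on the log2 scale (SE 0.0741, 95% interval -0.60 to -0.25, limma adjusted p = 0.0073), while Xpo5 stood at -0.03. Within arrays the log ratio of Polh to Xpo5 was -1.76, -1.55 and -1.56 in wild-type cells and -2.01 and -2.02 in Dicer-deficient cells, without overlap. The difference between the 2 changes was -0.39, with a two-sided exact permutation p of 0.1. This is the smallest p that 10 splits of 5 arrays allow. The permutation test therefore could not reach 0.05, and it does not decide whether the 2 changes differ. Leaving out Dicer-deficient array 1 or array 2 ended the call of Polh, at adjusted p = 0.0619 and 0.0686. At the Drosha window, 6030458C11Rik read 7.95, 8.13 and 8.04 in wild-type cells and 8.24 and 8.20 in Dicer-deficient cells. Its difference of 0.18 did not pass (limma adjusted p = 0.225), and its change less that of Drosha was 0.19 (two-sided exact permutation p = 0.2).

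The genes next to Dicer1 did not fall with it. The nearest genes with a probe set of their own, 2 on each side, were Gsc, Gm10000, Clmn and Syne3, with differences of 0.51, 0.08, 0.06 and 0.22. Gsc, a homeobox gene of the organizer region of the embryo, rose from 6.36, 6.63 and 6.67 to 7.10 and 7.03 (limma adjusted p = 0.0166). Leaving out wild-type array 2 or either Dicer-deficient array ended that call, with adjusted p between 0.0633 and 0.186. The intervals of Gm10000 and Clmn included 0 and their groups overlapped. Around all 6 processing genes 24 such neighbours were read, of which 2 were called higher, 1 lower and 21 neither, or 12.5% in all against 17.1% of all genes. Mir693, counted among them as a neighbour of Xpo5, lies inside that gene. The other riser was Pdzd2, near Drosha with 6030458C11Rik between them. It had a difference of 0.58, a wild-type signal of 4.70 that was not shown to be above background, and limma adjusted p = 0.0152. Leaving out any wild-type array, or Dicer-deficient array 2, ended its call, with adjusted p between 0.0586 and 0.0845. Near Dgcr8, with Trmt2a between them, lies Ranbp1, which encodes a Ran-binding protein of nuclear transport. Its difference was -0.10 (limma adjusted p = 0.553).

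**Figure D4:**
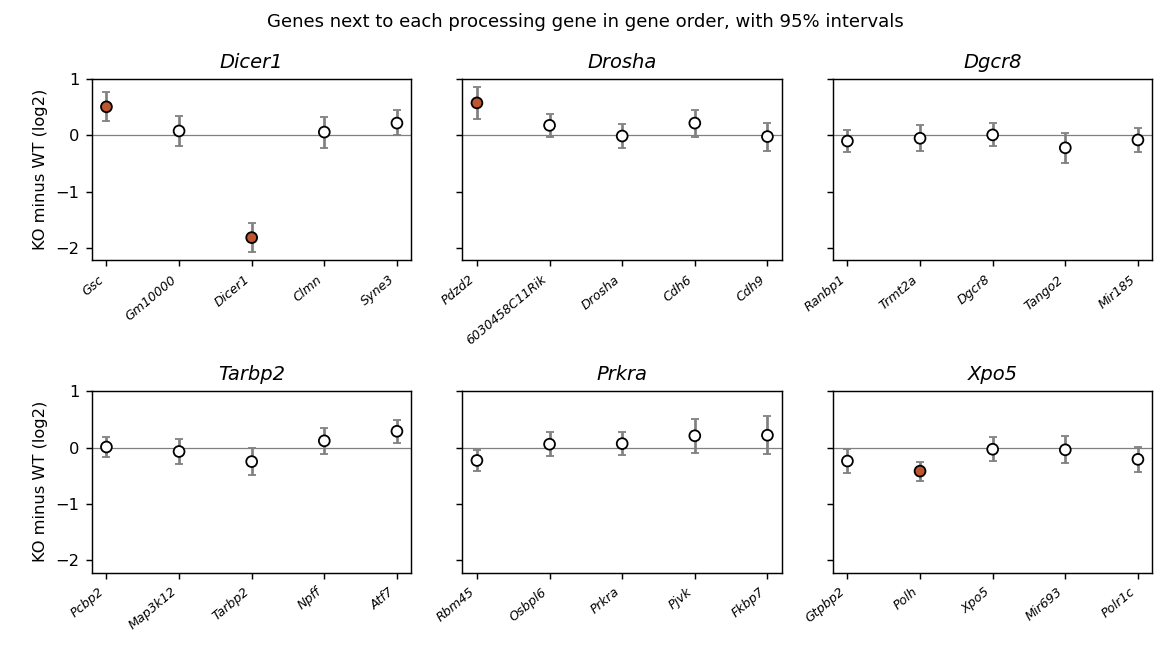
Difference in signal (Dicer-deficient minus wild type, log2) with 95% intervals for each processing gene (centre of its panel) and the 2 nearest measured genes on each side in gene order. Filled points passed limma at an adjusted p of 0.05, and Dicer1 falls alone between Clmn and Gm10000.

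The wider pathway was followed through 59 further genes, of which 5 rose, 7 fell and 47 did not pass limma, with a median difference of -0.03. The 20.3% called stands beside 17.1% of all genes, dim ones included. Most pathway genes were not dim: off chromosome 14, 52 of 55 had a mean above the median signal. Among all genes with such a mean, 27.4% off chromosome 14 and 43.4% on it were called. The shares called by list were 16.7% for nuclear cofactors, 15.4% for exportins and 25% for Argonautes and chaperones. For precursor control genes the share was 33.3%, and for other double-stranded RNA-binding proteins 11.1%. Lists were drawn up with earlier results of these data known, and some genes stand in more than 1 list.

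Among nuclear cofactors of hairpin cutting 1 rose, 1 fell and 10 did not pass, of 12 measured. Hnrnpa2b1, which reads a methyl mark on primary microRNAs, rose from 10.48, 10.51 and 10.48 to 10.87 and 10.98 (difference 0.43, limma adjusted p = 0.00805, and 0.0754 without Dicer-deficient array 2). Mettl3, the methyltransferase that writes that mark, fell from 9.11, 9.22 and 8.97 to 8.51 and 8.60. Its difference was -0.55 (limma adjusted p = 0.00761), which became 0.118 when Dicer-deficient array 1 was left out and 0.0827 for array 2. The groups did not overlap for these genes, which was so for 7 of the 12 genes of the list and for 39.9% of all genes. The helicases Ddx5 and Ddx17, which associate with Drosha, had differences of 0.12 and -0.04.

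Among the Ran system and other exportins 0 of 13 rose, 2 fell and 11 did not pass limma. Xpo4 read 9.44, 9.33 and 9.22 in wild-type cells and 8.41 and 8.42 in Dicer-deficient cells, a 1.89-fold fall (difference -0.92, SE 0.0892, limma adjusted p = 0.000608). Xpo7 read 8.70, 8.79 and 8.65 against 7.91 and 7.89, a 1.76-fold fall (difference -0.81, SE 0.0801, limma adjusted p = 0.000638). Both export proteins rather than microRNA precursors as far as is known, and both calls held without each array. Ran itself had -0.07, the protein exporter Xpo1 -0.14 and the tRNA exporter Xpot -0.04, none of which passed.

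Among Argonautes and loading chaperones 2 rose, 1 fell and 9 did not pass, of 12 measured. Ago1, an Argonaute that holds the mature microRNA, rose from 8.51, 8.56 and 8.22 to 9.24 and 8.99 (difference 0.69, limma adjusted p = 0.00952), which became 0.157 when Dicer-deficient array 1 was left out and 0.0761 for array 2. Dnaja2, an Hsp70 cochaperone, had 0.28, and Tsn, the translin subunit of the nuclease that clears cut passenger strands, had -0.36. Leaving out any 1 of the 5 arrays ended both calls, with adjusted p between 0.0739 and 0.195 for Dnaja2 and between 0.0503 and 0.237 for Tsn.

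Among genes of precursor control and turnover 2 rose, 3 fell and 10 did not pass, of 15 measured. Lin28a, which blocks let-7 precursors from Dicer, read 8.82, 8.94 and 8.84 in wild-type cells and 5.90 and 5.78 in Dicer-deficient cells, a larger fall than that of Dicer1. Its relative Lin28b went the other way, from 6.35, 6.50 and 6.56 to 6.97 and 7.19 (difference 0.61, limma adjusted p = 0.00632, and 0.0509 or 0.0946 when either Dicer-deficient array was left out). The exonuclease Xrn2 had 0.36 and Zswim8, of a ubiquitin ligase that acts in target-directed microRNA decay, -0.35. Leaving out any 1 array ended both calls, with adjusted p between 0.062 and 0.171 for Xrn2 and between 0.0578 and 0.285 for Zswim8. The uridylyltransferases Tut4 and Tut7, which tail let-7 precursors, had -0.36 and -0.10 and did not pass.

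Among other proteins with double-stranded RNA-binding domains, the family of Tarbp2 and Prkra, 0 of 9 rose, 1 fell and 8 did not pass limma. The RNA-editing enzyme Adar had -0.31 (limma adjusted p = 0.0446), which lay between 0.121 and 0.238 when any array but wild-type array 3 was left out. Eif2ak2, the kinase PKR that Prkra activates, had 0.05, and Dhx9, an RNA helicase, 0.15.

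The 4 pathway genes on chromosome 14, Mettl3, Xpo4, Xpo7 and Zswim8, were all among the 7 that fell. Of 698 measured genes of that chromosome 19.8% were called lower, against 8.19% of all other genes. Among genes with a mean above the median signal the shares were 33.7% and 13.7%. The median difference on the chromosome was -0.02 over all its genes and -0.15 among those above the median signal, against 0.01 and 0.00 elsewhere. The part of these lower readings in the 4 falls was not tested. Off chromosome 14, 55 pathway genes had 5 higher and 3 lower, which is 14.5% called beside 16.8% of all genes off that chromosome. For genes above the median signal the shares were 15.4% of 52 pathway genes and 27.4% of all. None of the 6 processing genes lies on chromosome 14. By the gene table Dicer1 is on chromosome 12, Drosha and Tarbp2 on 15, Dgcr8 on 16, Prkra on 2 and Xpo5 on 17.

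**Figure D5:**
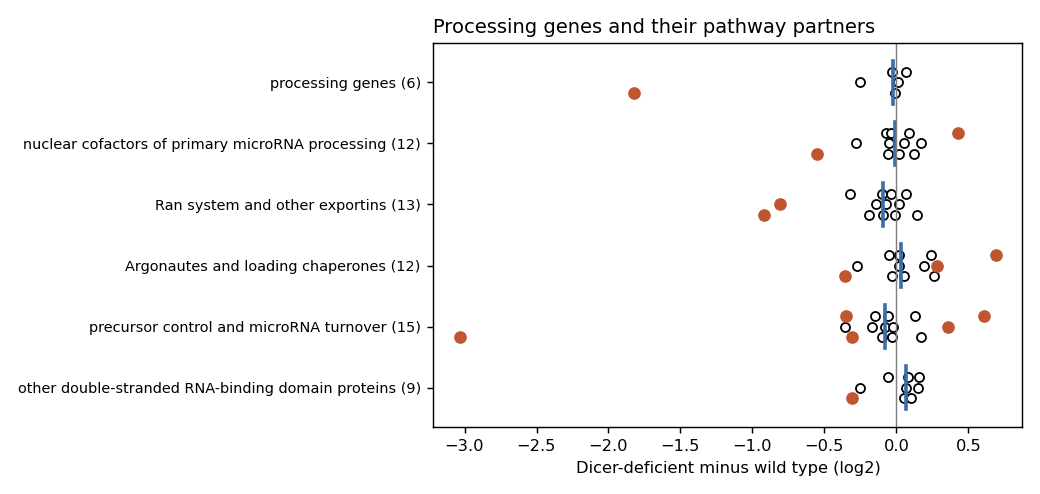
Difference in signal (Dicer-deficient minus wild type, log2) of the processing genes and of each pathway list, 1 point per gene with the number measured in brackets. Filled points passed limma at an adjusted p of 0.05, blue bars are list medians, and Dicer1 and Lin28a lie farthest to the left.

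Genes whose readings most resembled those of Dicer1 were found by the root mean square difference between values centred on each gene's own mean, over the 5 arrays. Pclaf, a PCNA-associated factor of DNA replication, was nearest (0.0838), followed by Khdc3, a maternal-effect gene of oocytes and ES cells (0.0939), Rimklb (0.100), Spats2 (0.122) and the mitophagy receptor Bnip3 (0.138). Bnip3 read 9.02, 8.83 and 8.99 in wild-type cells and 7.40 and 6.67 in Dicer-deficient cells. The choice used all 5 arrays, so the shared order of the readings is not a result.

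The identity of the cells was checked against marker genes. All 10 ES cell markers read above the median signal on every array, with Pou5f1 at 11.82 ± 0.18 (SD, n = 3) and 11.99 ± 0.0283 (SD, n = 2), and 2 of them were called lower, Esrrb and Tdgf1. Of 10 fibroblast markers 5 read above the median signal on every array (Fn1, Col1a1, Thy1, Col3a1 and Col1a2), with Fn1 the highest at 11.46 in wild-type cells. Fibroblast markers had list medians of 5.22 to 5.54 on wild-type arrays and 5.50 to 5.51 on Dicer-deficient arrays, and the 3 dimmest, Postn, Dcn and Lum, read between 3.28 and 4.43 as group means. Of the 10 markers 1 was called, Fn1, which was lower. Of 9 markers of differentiated lineages 2 rose, Krt8 and Pax6, the latter from a wild-type signal of 5.18 that was not shown to be above background. The shares called were 20% of ES cell, 10% of fibroblast and 22.2% of differentiated lineage markers, beside 17.1% of all genes. Among genes off chromosome 14 with a mean above the median signal, as all the ES cell markers had, 27.4% were called. Fewer cells of a type and less RNA per cell cannot be told apart in bulk samples, and the part of these markers in the results above was not tested.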

How the data were processed

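The authors deposited 1 table of log2 signals for 35556 probe sets, read as log2 because values lie between 2.38 and 14.66; the log base, background correction, summarisation and normalization are not given in the sources used here. Per the labels' protocols, labelled cRNA was prepared from total RNA. Probe sets were named through the platform annotation: 21789 had 1 symbol, 1621 several and 12146 none. The last 2 kinds were not used for genes. Of 19938 genes, 19856 were matched to a gene table (GRCm38.p6), which gave chromosomes and gene order. The files name no build.

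Members and lists were chosen with earlier results of these data known. The test was limma 3.58.1 (R 4.3.3), lmFit and eBayes without covariates, with 3 residual and 4.55 prior degrees of freedom and Benjamini-Hochberg adjustment over all genes at 0.05. It was tested on simulated data. Fold values are powers of 2 of log2 differences. Arrays give no depth; their number limits precision. Named genes were the 6 members, up to 4 called genes of largest change per list, the 2 nearest neighbours on each side and the 5 genes most like Dicer1. Gene and marker names mentioned beyond these were chosen after their values were seen. Alternatives were further normalization, filters, variance models, array weights, a replicate block, other probe set rules and leaving out each array. Some listed genes, among them Hnrnpa1, Hsp90ab1 and T, were not analysed here. RefSeq promoters were found for all 6 members. Same-numbered arrays of the genotypes were not treated as paired, as the sample titles state no pairing. Correlations of their deviations were 0.05 and 0.01, which with 2 Dicer-deficient arrays cannot show whether cultures were handled in pairs. Python 3.11.15, pandas 2.3.3, numpy 2.4.6 and matplotlib 3.10.9 were used.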

Additional observations from a re-analysis of the deposited data

How the results depend on the processing

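Dicer1 kept its fall and its call under all 15 alternatives. Drosha, Dgcr8, Prkra and Xpo5 stayed uncalled wherever they were tested (Prkra was removed by the filter on dim genes). Each of these genes had a single probe set, so other probe set rules could not change its difference. The filter and the variance models could change only the test. As each array was left out, the differences of Drosha, Dgcr8, Prkra and Xpo5 ran from -0.07 to 0.05, -0.05 to 0.07, 0.00 to 0.10 and -0.08 to 0.03. Tarbp2 passed with array weights (-0.31), with the mean of its probe sets (-0.32) and with the probe set of lowest mean (-0.40). The last was added after seeing the data. In each, 2 processing genes were called lower. Of all genes 2209 were called lower with array weights and 1718 with the mean of probe sets, in place of 1714.

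The replicate block gave 477 genes higher and 417 lower in place of 1690 and 1714, with a single residual degree of freedom. It changed no call among the 6 processing genes. In the lists it left 0 nuclear cofactors higher, 0 Argonautes and chaperones higher and 0 lower, 1 precursor control gene higher and 1 lower, and 0 double-stranded RNA-binding proteins lower, and it ended the calls of Gsc, Pdzd2, Polh, Hnrnpa2b1, Ago1, Tsn, Dnaja2, Xrn2, Zswim8 and Adar. Whether same-numbered arrays belong together is not stated in the sample titles.

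Quantile normalization moved the list medians to 0.05 for nuclear cofactors, 0.00 for exportins and 0.07 for Argonautes and chaperones. Median centring left 1 of the last list higher, 1 precursor control gene lower and 0 double-stranded RNA-binding proteins lower. The filter on dim genes, the intensity trend and array weights each gave 2 nuclear cofactors and 2 Argonautes and chaperones lower. The intensity trend also gave 1 precursor control gene and 0 double-stranded RNA-binding proteins lower, and array weights gave 4 Argonautes and chaperones higher and 2 double-stranded RNA-binding proteins lower. Over all probe sets 1 gene of the Argonaute list was higher and 0 lower, 1 precursor control gene was higher and 1 lower, and 0 double-stranded RNA-binding proteins were lower. That fit ended the calls of Gsc, Pdzd2, Tsn, Dnaja2, Xrn2, Zswim8 and Adar. The main fit called 1690 of all genes higher and 1714 lower. These counts were 1994 and 1772 with quantile normalization, and 1702 and 1662 with median centring. They were 1705 and 1719 with the intensity trend, and 2037 and 2209 with array weights. The filter, which tested fewer genes, gave 1766 and 1894. Over all probe sets 1259 probe sets were higher and 1392 lower. The cause of the shifts in the lists was not tested.

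Fits with 1 array fewer called fewer genes: 536 to 1396 genes were higher and 434 to 1560 lower. Nuclear cofactors had 0 to 1 higher and 0 to 1 lower, with medians from -0.02 to 0.04. Argonautes and chaperones had 0 to 2 higher and 0 to 1 lower, precursor control genes 0 to 1 higher and 1 to 2 lower, and double-stranded RNA-binding proteins 0 to 1 lower. The lone Dicer-deficient array that remains in some of these fits is assumed to vary like the wild-type arrays. Signal over background was not measured and limits Prkra most.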
